A study of Mus musculus with 8 samples.

Results

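The 37 genes described here encode the core machinery of autophagy, the process by which a cell encloses part of its own cytoplasm in a membrane and delivers it to lysosomes. They were taken from a list of mouse symbols that covers the initiation kinase, the lipid kinase complexes, membrane supply, the conjugation system, the ATG8 proteins, cargo receptors and the transcription factors TFEB and TFE3. Each symbol matched 1 row of the deposited table, so all 37 were found among its 52097 genes. All 37 also passed the filter on low values, an FPKM (the fragments of a gene for each kilobase of its transcript, per 1000000 fragments mapped in the library) of at least 1 in at least 3 libraries, which left 15121 genes for testing.

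In autophagy a kinase built on ULK1 receives signals of nutrient state from mTORC1 and AMPK and switches on a lipid kinase, VPS34, whose product marks the membrane where the autophagosome forms. A pair of ubiquitin-like reactions then couples ATG12 to ATG5 and attaches the ATG8 proteins (the LC3 and GABARAP families) to lipid in that membrane, where cargo receptors such as p62 bind them. Haematopoietic stem cells are known to rely on autophagy, among other uses, to clear mitochondria and to hold a low metabolic rate.

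Bulk RNA-seq was made from mouse bone marrow cells sorted as CD48-CD150+LSK, the surface phenotype of haematopoietic stem cells. The control group held 5 libraries of the genotype Nup214fl/fl, in which both alleles of the nuclear pore gene Nup214 carry loxP sites and no Cre is present. The knockout group held 3 libraries of the genotype Nup214fl/fl,Mx1-Cre, in which an interferon-inducible promoter drives Cre. Cells of both groups were collected 3 days after pIpC was given, an RNA analogue that triggers an interferon response and thereby the Mx1 promoter. Mx1-Cre is not restricted to stem cells, and only the knockouts carried it, so effects of Cre and of Nup214 loss cannot be told apart. The labels give no age and do not tie libraries to individual animals. The p-values therefore describe differences relative to library-to-library spread, which may be partly technical.

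Nup214 itself was 34.2 to 65.2 FPKM in the controls and 9.66 to 18.2 FPKM in the knockouts (as deposited, log2 fold change -1.66 ± 0.25 SE, limma adjusted p = 0.000289, n = 5 and 3). Depth, estimated in units of 1000000 fragments, averaged 30.6 ± 8.26 in the controls and 20.3 ± 3.72 in the knockouts (SD, exact permutation p = 0.0893). Transcripts of the mitochondrial chromosome took 5.02% to 6.66% of the summed FPKM in controls and 37.8% to 43.3% in knockouts, which lowers the FPKM of every other gene in the knockouts by construction. Counts of markers below are calls as deposited (limma adjusted p under 0.05), where 59.5% of all genes tested were lower and 8.91% higher. Among 10 stem cell markers, 8 were lower in the knockouts and 0 higher, and their summed level was 728 to 987 FPKM in controls and 337 to 435 in knockouts. Of these markers, Kit, which defines the sorting gate, was 124 to 174 FPKM in controls and 3.46 to 23.4 in knockouts, while Ly6a (Sca-1) was 319 to 355 and 279 to 390. Ly6a made up most of the stem cell sum in knockout replicates 1 to 3 (390 of 435, 322 of 337 and 279 of 339 FPKM). It was a smaller part of that sum in the controls, so the sums understate how far the other markers differed. Markers of other cells were higher in the knockouts for macrophages (11 of 13; summed 447 to 603 FPKM in controls and 1896 to 7632 in knockouts), T and NK cells (13 of 14; 373 to 1045 and 2146 to 2973), stromal and endothelial cells (9 of 11, with 2 lower; 69.1 to 88.4 and 325 to 641) and adipocytes (2 of 2 tested; 3.66 to 8.31 and 87.1 to 258). The other lists were mixed: granulocytes (0 of 9 higher, 4 lower; 3249 to 9545 and 1619 to 6253), B cells (0 of 3 tested higher, 1 lower; 61.4 to 78.6 and 39.8 to 79.2), erythroid cells (2 of 5 tested higher, 1 lower; 37.4 to 65.1 and 91.6 to 218) and megakaryocytes (1 of 5 higher, 4 lower; 113 to 217 and 186 to 732). After median-ratio rescaling (explained below), 21.4% of all genes were lower and 16.5% higher. On that scale 8 stem cell markers were lower and 1 higher. Markers higher were 12 for macrophages, 14 for T and NK cells, 9 for stromal and endothelial cells (1 lower) and 2 for adipocytes. Granulocytes had 2 higher and 4 lower, B cells 1 and 0, erythroid cells 3 and 1, and megakaryocytes 1 and 2. In bulk samples, fewer cells of a type and less RNA per cell cannot be told apart, and the part of these differences in the autophagy results was not tested.

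In the controls the genes spanned a wide range of levels. Sqstm1, which encodes the cargo receptor p62, was the most abundant at 215 ± 20.96 FPKM (SD, n = 5), followed by 4 members of the ATG8 family, Gabarap at 196 ± 21.4, Map1lc3b at 184 ± 9.28, Gabarapl1 at 122 ± 12.7 and Gabarapl2 at 106 ± 14.4. Neighbours in this order had overlapping libraries, except that every control library of Map1lc3b lay above every one of Gabarapl1, Gabarapl2 lay above Becn1 and Atg101 lay above Atg3. The kinases that open the pathway were among the scarcer members, with Ulk1 at 7.78 ± 1.85 FPKM and Ulk2, the lowest of the 37, at 3.90 ± 0.722. In the knockouts Sqstm1, Gabarap and Map1lc3b kept the first 3 places, Gabarapl1 was at the sixth place, and Atg10 went from place 23 to place 36. Of the 37 genes, 17 overlap another annotated gene, among them Atg4b (with Thap4), Atg4d (Kri1), Atg2b (Gskip), Becn1 (Cntd1) and Map1lc3b (Zcchc14) on the opposite strand, and without a stated strand setting the reads of such pairs cannot be told apart. For 13 genes an overlapping gene reached at least 1 FPKM in some library. Map1lc3b also overlaps Gm20388 on the same strand, at up to 9.65 FPKM. Uvrag overlaps several genes, at up to 6.1 FPKM (Gm23479), and Gabarapl1 overlaps Gm44243 on the same strand, at up to 2.65 FPKM.

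**Figure D1:**
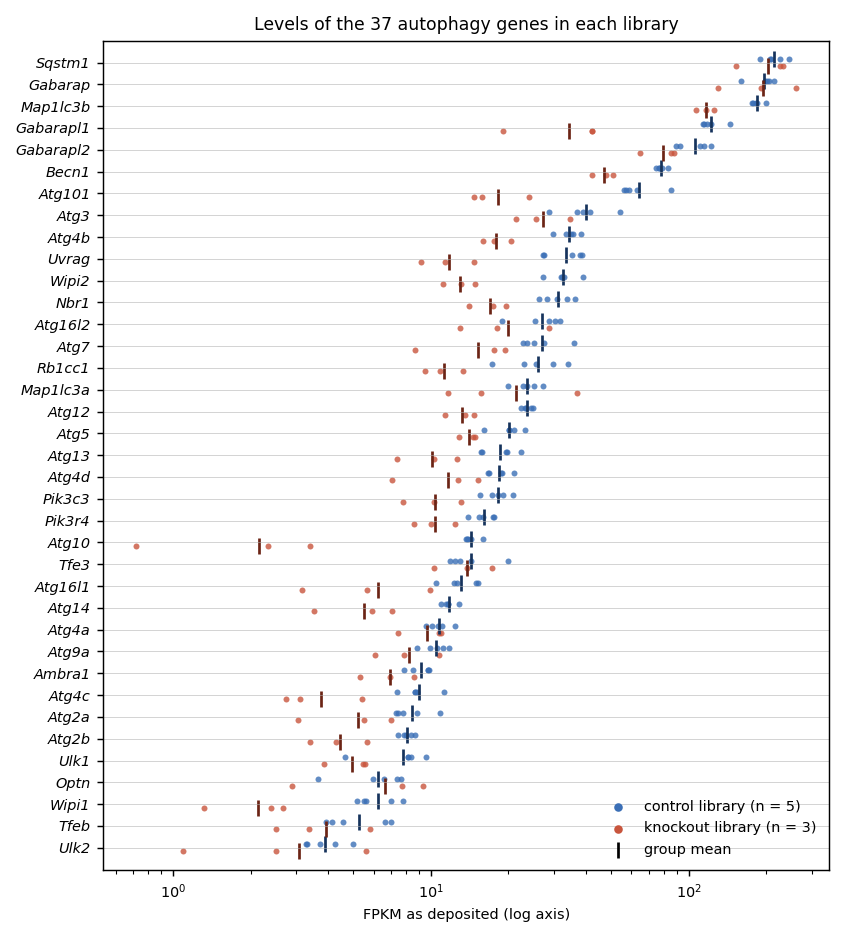
Level of each autophagy gene in FPKM as deposited, on a log axis, with 1 point per library (blue for 5 controls, red for 3 knockouts) and a bar at each group mean, ordered by the control mean. Levels run from about 200 FPKM for Sqstm1 and Gabarap to under 5 FPKM for Ulk2, and the red points of Atg10 and Gabarapl1 lie far to the left of the blue ones.

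The comparison addressed which steps of autophagy changed at the RNA level when Nup214 was deleted. As deposited, 25 of the 37 genes fell in the knockouts, 0 rose and 12 did not pass the test (limma-trend on log2(FPKM + 1), Benjamini-Hochberg adjustment over all 15121 genes, threshold 0.05). The lower share, 67.6%, stood against 59.5% of all genes tested, and the higher share of 0 against 8.91%. At an unadjusted p under 0.05, 0 members were higher. The groups did not overlap for 24 members, all lower in the knockouts, against 54.5% of all genes lower and 7.89% higher without overlap. The median log2 fold change of the members was -0.67, close to the -0.81 of all genes tested, and 14 members fell by more than that all-gene median.

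Because the mitochondrial share differs so much between the groups, the same test was run on 3 other scales. Median-ratio rescaling divides each library by its median ratio to the geometric mean of all libraries, and it moved the median of all genes from -0.81 to -0.13 and that of the members from -0.67 to 0.10. On that scale 5 members fell (Atg101, Uvrag, Wipi2, Atg10 and Gabarapl1), against 21.4% of all genes, and 4 rose (Atg4a, Gabarap, Sqstm1 and Tfe3), against 16.5%. Quantile normalization called the same genes except Wipi2, that is 4 lower and 4 higher (20.4% and 16.7% of all genes). Rescaling to the non-mitochondrial total gave 10 lower and 0 higher (39.0% and 11.8% of all genes). With the mitochondrial share taken out in this way, the medians stayed negative, at -0.44 for all genes tested and -0.26 for the members. Nup214 was lower on all 4 scales, by less than as deposited on the other 3. It was at -0.85 median-ratio rescaled (limma adjusted p = 0.0255) and -0.76 with quantile normalization (limma adjusted p = 0.0415). On the non-mitochondrial total it was at -1.22 (limma adjusted p = 0.00357). Only Atg101, Uvrag, Atg10 and Gabarapl1 were lower on all 4 scales and 0 members were higher on all 4, against 19.2% and 8.88% of all genes. The other 33 members either passed on some scales and not on others or passed on none, and "fell" and "rose" below name the scale they refer to.

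**Figure D2:**
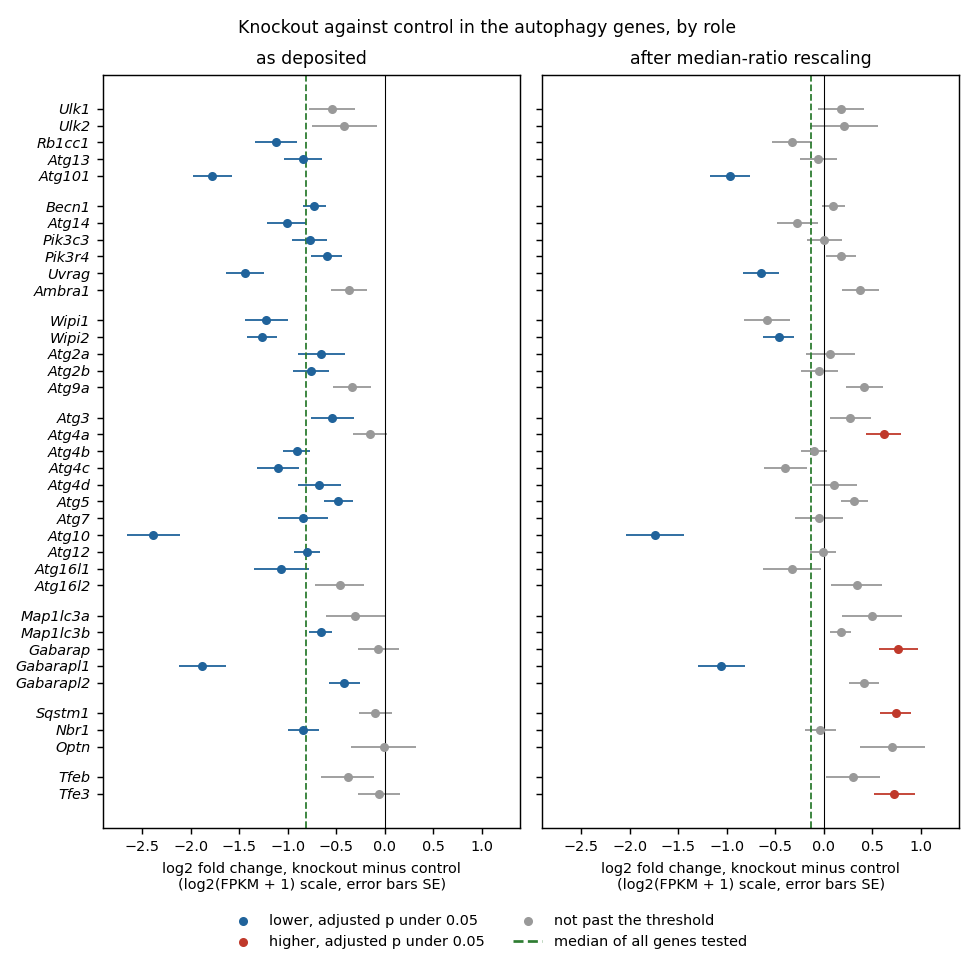
Difference of mean log2(FPKM + 1), knockout minus control, for the 37 genes grouped by role, with SE bars, as deposited on the left and after median-ratio rescaling on the right. Blue points are lower and red points higher at a limma adjusted p under 0.05, grey points did not pass, and the dashed line is the median of all genes tested, at -0.81 and -0.13.

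The summed level of the 37 genes averaged 1495 ± 62.3 FPKM over the 5 controls and 1005 ± 123 over the 3 knockouts (SD), without overlap (exact two-sided permutation test, p = 0.0179, the smallest that 56 choices of 3 libraries allow). As a share of all non-mitochondrial FPKM the sum was 0.185% ± 0.0136 and 0.171% ± 0.0202, which overlapped (exact permutation p = 0.321).

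The initiation complex joins the kinases ULK1 and ULK2 to the scaffold FIP200 (Rb1cc1), ATG13 and ATG101, the subunit that stabilises ATG13. Atg101 (chr15:101284272-101290945 on GRCm38, plus strand) was 58.5, 55.9, 63.3, 85.3 and 57.1 FPKM in the 5 controls, replicates in order, and 24.1, 14.7 and 15.8 FPKM in the 3 knockouts. Every knockout lay under the lowest control, by more than 31 FPKM. Its log2 fold change was -1.78 ± 0.20 as deposited (adjusted p = 5.4e-05) and -0.97 ± 0.20 after median-ratio rescaling (adjusted p = 0.00452). Rb1cc1 and Atg13 fell as deposited (log2 fold changes -1.12 and -0.84) and did not pass after median-ratio rescaling. Neither kinase passed the test on any of the 4 scales: Ulk1 ran from 4.65 to 9.60 FPKM in controls and 3.86 to 5.57 in knockouts, and Ulk2 from 3.27 to 4.99 and 1.09 to 5.61. Fold changes of the 5 genes ranged from -1.78 to -0.42 as deposited, with 3 of 5 lower (against 59.5% of all genes), and from -0.97 to 0.21 after rescaling, with 1 lower (20.0% against 21.4%).

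The class III lipid kinase consists of the catalytic subunit VPS34 (Pik3c3), its partner VPS15 (Pik3r4) and Beclin 1 (Becn1). ATG14 directs it to the forming autophagosome, UVRAG takes the place of ATG14 in a complex that acts on endosomes, and AMBRA1 binds Beclin 1. Uvrag (chr7:98885021-99141141, minus strand) was 27.5, 27.3, 35.3, 38.7 and 37.9 FPKM in the controls and 14.7, 11.3 and 9.13 FPKM in the knockouts. All 3 knockouts were under 15 FPKM and all 5 controls above 27. The log2 fold change was -1.44 ± 0.19 as deposited (adjusted p = 0.000139) and -0.65 ± 0.19 after median-ratio rescaling (adjusted p = 0.0228). On the rescaled values, leaving out control replicate 3, knockout replicate 2 or knockout replicate 3 ended that call, with adjusted p up to 0.0779.

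The core subunits of the lipid kinase showed a smaller difference whose sign depended on the scale. Becn1 was 76.9, 76.8, 78.9, 74.8 and 83.2 FPKM in controls and 50.9, 47.6 and 42.2 in knockouts, with a narrow spread in both groups and no overlap. The log2 fold change was -0.73 ± 0.12 as deposited (adjusted p = 0.000426) and 0.10 ± 0.12 after median-ratio rescaling (adjusted p = 0.542). Pik3c3 was 18.2, 15.5, 19.1, 20.8 and 17.3 FPKM in controls and 7.77, 13.1 and 10.3 in knockouts, without overlap. Its fold change was -0.77 as deposited (a fall) and 0.01 after rescaling. Pik3r4 was 17.5, 13.9, 15.9, 15.4 and 17.5 FPKM in controls and 8.64, 9.98 and 12.4 in knockouts, again without overlap, and its log2 fold changes were -0.60 and 0.18. Atg14 fell as deposited, from 11.7 ± 0.726 to 5.50 ± 1.81 FPKM, and did not pass after rescaling (-0.27), whereas Ambra1 passed on neither scale (-0.37 and 0.38). Of the 6 genes, 5 fell as deposited (83.3%, against 59.5% of all genes) and 1, Uvrag, after median-ratio rescaling (16.7% against 21.4%).

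WIPI proteins bind the lipid that VPS34 makes, ATG9A is the transmembrane protein of the seed vesicles, and ATG2 proteins carry lipid into the growing membrane. Wipi2 (chr5:142627698-142670588, plus strand) was 38.9, 27.1, 32.1, 32.2 and 33.0 FPKM in controls and 11.2, 14.9 and 13.0 in knockouts. Every knockout lay under 15 FPKM and every control over 27. It fell by 1.26 ± 0.15 as deposited (adjusted p = 8.75e-05) and by 0.46 ± 0.16 after median-ratio rescaling (adjusted p = 0.0403), and it missed the threshold with quantile normalization (-0.38, adjusted p = 0.08). Leaving out any of 5 libraries (control replicates 3, 4 and 5, knockout replicates 1 and 3) also ended the rescaled call, with adjusted p up to 0.103. Atg2a was 10.9, 7.30, 7.77, 8.85 and 7.49 FPKM in controls and 5.52, 3.05 and 7.02 in knockouts, a gap between groups of under 1 FPKM. The log2 fold change was -0.65 ± 0.24 as deposited (adjusted p = 0.0356), a call that ended when control replicate 1, 3, 4 or 5 or knockout replicate 2 was left out (adjusted p up to 0.126), and 0.07 after rescaling. Wipi1 and Atg2b fell as deposited (-1.22 and -0.76) and did not pass after median-ratio rescaling (-0.58 and -0.04). Atg9a passed on no scale (-0.34 and 0.42), and its values are uncertain because Ankzf1, at up to 26.4 FPKM, overlaps it on the opposite strand.

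The conjugation system contains the E1-like enzyme ATG7, the E2-like enzymes ATG3 and ATG10, the ATG12–ATG5–ATG16L1 complex and the ATG4 proteases that trim ATG8 proteins and release them from lipid. Atg10, whose product transfers ATG12 to ATG5, had the largest log2 fold change of the 37 genes on all 4 scales. Atg10 (chr13:90935356-91223968, minus strand) was 14.3, 15.97, 13.9, 13.7 and 13.8 FPKM in the controls and 0.72, 3.40 and 2.33 in the knockouts. The 5 controls lay within 3 FPKM of each other and each knockout was more than 10 FPKM under every control. Its log2 fold change was -2.39 ± 0.27 as deposited (adjusted p = 6.28e-05), -1.74 ± 0.30 after median-ratio rescaling (adjusted p = 0.00158), -1.76 ± 0.32 with quantile normalization (adjusted p = 0.002) and -2.04 ± 0.29 on the non-mitochondrial total (adjusted p = 0.000363). The call held in each of the 8 fits that left out 1 library, as deposited and rescaled.

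The 2 direct partners in the reaction catalysed by ATG10 differed less. Atg12 fell by 0.80 as deposited and was at -0.01 after median-ratio rescaling. Atg5 was 16.1, 20.1, 20.1, 23.2 and 21.1 FPKM in controls and 12.9, 14.6 and 14.9 in knockouts, close but not overlapping. It fell by 0.48 ± 0.15 as deposited (adjusted p = 0.0172) and was at 0.32 ± 0.14 after rescaling (adjusted p = 0.104). Atg3, the enzyme that attaches ATG8 proteins to lipid, was 28.6, 41.3, 36.8, 54.3 and 39.1 FPKM in controls and 21.4, 34.7 and 25.6 in knockouts. Its groups overlapped, since knockout replicate 2 lay above control replicate 1. The log2 fold change was -0.54 ± 0.22 as deposited (adjusted p = 0.0486), a call that ended in 6 of the 8 fits that left out 1 library (every one but those without control replicate 1 or knockout replicate 2, adjusted p up to 0.176), and 0.28 after rescaling. Atg7 and Atg16l1 fell as deposited (-0.84 and -1.06) and did not pass after rescaling (-0.05 and -0.32). Atg16l2 passed on no scale, and Fchsd2, at up to 44.5 FPKM, overlaps it on the opposite strand.

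Mammals have 4 ATG4 proteases, with log2 fold changes from -1.10 (Atg4c) to -0.15 (Atg4a) as deposited. Atg4a (chrX:140956907-141164270, plus strand) was 10.1, 9.55, 10.7, 12.4 and 11.03 FPKM in controls and 10.96, 10.7 and 7.44 in knockouts, and the groups overlapped. On the median-ratio scale the same libraries read 8.34, 7.66, 8.13, 9.67 and 8.57 in controls and 15.8, 15.0 and 10.4 in knockouts, without overlap. Its log2 fold change was -0.15 ± 0.17 as deposited (adjusted p = 0.469) and 0.62 ± 0.18 after rescaling (adjusted p = 0.0206), and the rescaled call ended when control replicate 1, 2 or 3 or knockout replicate 1 or 2 was left out (adjusted p up to 0.0595). A copy, Atg4a-ps, is 99.3% identical over 2115 nt and was listed at up to 1.25 FPKM, so reads of the pair may have been split. Atg4b and Atg4c fell as deposited (-0.91 and -1.10) and did not pass after median-ratio rescaling. Atg4d was 21.1, 16.7, 16.8, 18.9 and 18.7 FPKM in controls and 15.2, 7.09 and 12.7 in knockouts, without overlap. It fell by 0.67 ± 0.22 as deposited (adjusted p = 0.0205; 0.0527 without knockout replicate 2) and was at 0.11 after rescaling. Over the 11 conjugation genes, 9 fell as deposited (81.8%, against 59.5% of all genes) and 0 rose (against 8.91%). After rescaling 1 fell (Atg10; 9.09% against 21.4%) and 1 rose (Atg4a; 9.09% against 16.5%).

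The ATG8 family tags the autophagosome membrane and is bound by cargo receptors. Gabarapl1 (chr6:129533160-129542346, plus strand) was 144, 117, 122, 113 and 115 FPKM in the controls and 19.1, 42.1 and 42.3 in the knockouts. The highest knockout lay 71 FPKM under the lowest control. It fell by 1.88 ± 0.24 as deposited (adjusted p = 0.000123) and by 1.06 ± 0.24 after median-ratio rescaling (adjusted p = 0.0075), and it kept the call in each fit that left out 1 library on both scales.

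Gabarap (chr11:69991143-69994951, plus strand), a paralog of Gabarapl1, was 160, 205, 198, 215 and 202 FPKM in controls and 130, 262 and 191 in knockouts. The knockouts spanned the whole control range, with knockout replicate 1 the lowest and knockout replicate 2 the highest of the 8 libraries. After median-ratio rescaling it read 131, 165, 151, 168 and 157 in controls and 187, 368 and 265 in knockouts, without overlap. The log2 fold change was -0.07 ± 0.21 as deposited (adjusted p = 0.798) and 0.77 ± 0.20 rescaled (adjusted p = 0.0142), a call kept in each of the 8 rescaled fits that left out 1 library. On the non-mitochondrial total it did not pass (0.39, adjusted p = 0.126).

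Map1lc3b, which encodes the LC3 protein most used as an autophagosome marker, was 176, 179, 183, 185 and 200 FPKM in controls and 117, 107 and 126 in knockouts, without overlap. It fell by 0.66 ± 0.12 as deposited (adjusted p = 0.000781) and was at 0.17 ± 0.11 after rescaling (adjusted p = 0.248). Gabarapl2, also called GATE-16, was 89.0, 114, 111, 92.5 and 122 FPKM in controls and 88.1, 64.5 and 85.3 in knockouts, with 1 knockout less than 1 FPKM under the lowest control. It fell by 0.41 ± 0.16 as deposited (adjusted p = 0.0427), a call that ended without control replicate 2, 3 or 5 or knockout replicate 2 or 3 (adjusted p up to 0.162), and was at 0.42 ± 0.16 after rescaling (adjusted p = 0.0614). Processed pseudogenes of both are near-identical, with Gm6055 at 99.7% identity to Map1lc3b and up to 6.87 FPKM, and Gm3724 at 99.4% to Gabarapl2 and up to 11.5 FPKM. Map1lc3a passed on no scale and was 19.9 to 27.2 FPKM in controls and 11.6 to 37.02 in knockouts.

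**Figure D3:**
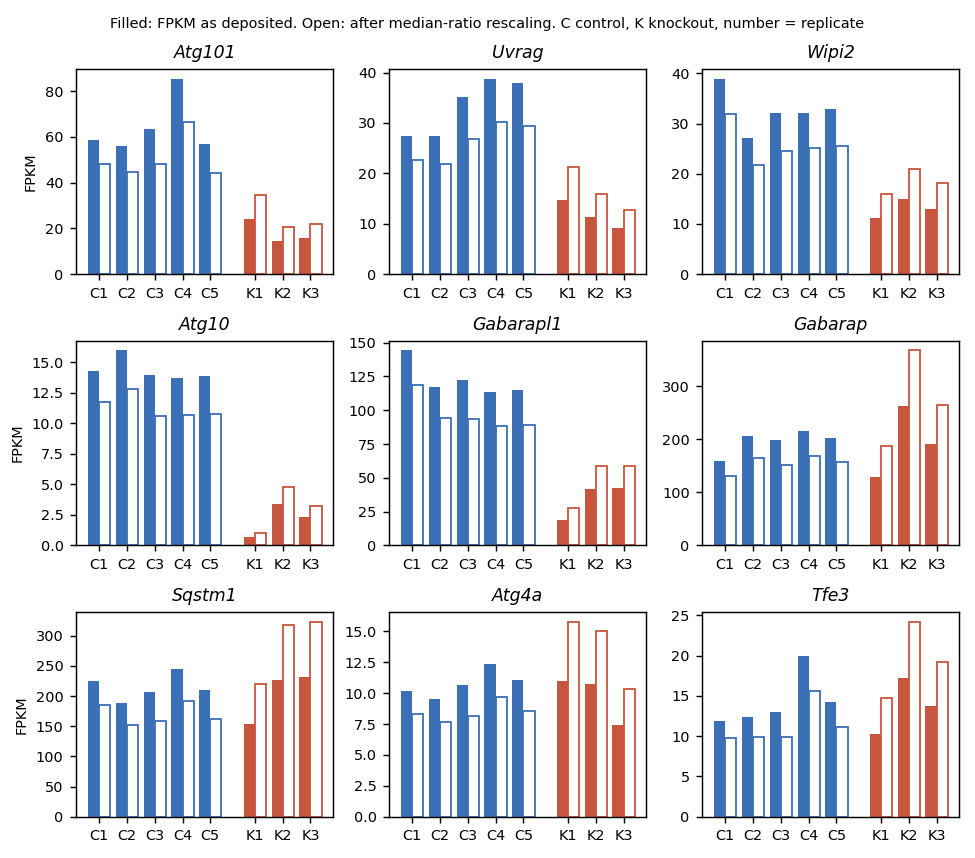
FPKM in each library of the 9 genes that passed the test after median-ratio rescaling, with filled bars for the deposited values and open bars for the rescaled ones, controls in blue and knockouts in red. For the first 5 genes the knockouts lie under the controls on both scales, while for Gabarap, Sqstm1, Atg4a and Tfe3 they overlap as deposited and their means read higher after rescaling, where Tfe3 still overlaps.

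A share within a family does not depend on the scaling of a library, so paralogs were also compared as shares of the summed FPKM of their family. The 3 cargo receptors, grouped by role and not as paralogs, were treated as a family too. Within the 5 ATG8 genes, Gabarapl1 made up 24.4%, 18.4%, 19.1%, 17.9% and 17.4% in the controls and 5.17%, 8.21% and 9.28% in the knockouts. The mean share was 19.4% ± 2.82 in controls and 7.55% ± 2.14 in knockouts (SD, n = 5 and 3, exact permutation p = 0.0179). Gabarap made up 26.9%, 32.2%, 30.9%, 34.1% and 30.7% in controls and 35.1%, 51.2% and 41.8% in knockouts. Its lowest knockout share was under 1 percentage point above its highest control share, and the means were 31.0% ± 2.63 and 42.7% ± 8.09 (exact permutation p = 0.0179). Shares of a family sum to 100%, so a lower share of 1 gene raises those of the others. Map1lc3b, Map1lc3a and Gabarapl2 shares overlapped between the groups.

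**Figure D4:**
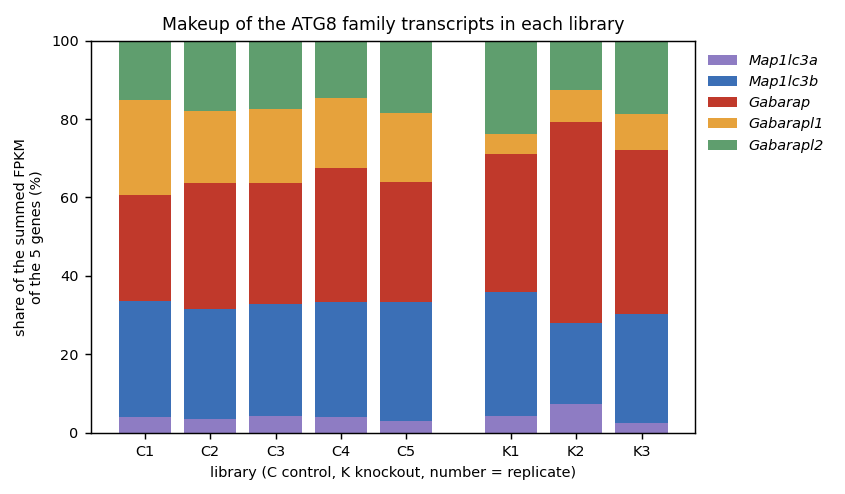
Share of each ATG8 gene in the summed FPKM of the 5 genes, in percent, as stacked bars for the 5 control (C) and 3 knockout (K) libraries. The Gabarapl1 segment is 17.4% to 24.4% in controls and 5.17% to 9.28% in knockouts, and the Gabarap segment 26.9% to 34.1% and 35.1% to 51.2%.

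Of 22 shares compared in 8 families, 5 did not overlap between the groups, all with an exact permutation p of 0.0179. None passed 0.05 after Benjamini-Hochberg adjustment over the 22 shares, where the smallest value was 0.0786. Since 0.0179 is the smallest p this test allows, 5 shares at that value could not pass the adjustment by themselves. The adjusted result therefore cannot decide whether these shares differ. In families of 2 genes the 2 shares also mirror each other, so the 22 tests are not independent. Sqstm1 and Nbr1, among the 5, nearly mirror each other too, since Optn made up only 2.52% of the receptor sum in controls and 2.78% in knockouts. Beside the ATG8 pair, the share of Atg4a among the 4 proteases was 14.8% ± 1.35 in controls and 22.7% ± 5.15 in knockouts, with the lowest knockout at 17.2% and the highest control at 17.1%. Among the 3 cargo receptors, the share of Sqstm1 was 85.1% ± 1.57 in controls and 89.7% ± 0.820 in knockouts, and that of Nbr1 12.4% ± 1.47 and 7.55% ± 0.724. The ratios of Ulk1 to Ulk2, Atg2a to Atg2b, Atg16l1 to Atg16l2, Wipi1 to Wipi2 and Tfeb to Tfe3 overlapped between the groups.

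Cargo receptors link ubiquitinated material to ATG8 proteins. Sqstm1 (chr11:50199366-50210827, minus strand) was 226, 189, 207, 245 and 209 FPKM in controls and 153, 227 and 232 in knockouts, and knockout replicates 2 and 3 lay within the control range. After median-ratio rescaling it read 185, 152, 158, 191 and 163 in controls and 221, 319 and 323 in knockouts, without overlap. Its log2 fold change was -0.09 ± 0.17 as deposited (adjusted p = 0.633), 0.74 ± 0.16 rescaled (adjusted p = 0.00534, kept in each fit that left out 1 library) and 0.36 on the non-mitochondrial total (adjusted p = 0.0965). Mrnip, at up to 12.5 FPKM, overlaps it on the opposite strand. Nbr1, a receptor that shares cargo with p62, was 26.3 to 36.4 FPKM in controls and 14.01 to 19.6 in knockouts, and fell by 0.84 as deposited and was at -0.04 after rescaling. Optn, a receptor used in mitophagy, passed on no scale and was 3.64 to 7.68 FPKM in controls and 2.89 to 9.31 in knockouts.

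TFEB and TFE3 are basic helix-loop-helix factors that enter the nucleus when mTORC1 is inactive and switch on lysosomal and autophagy genes. Tfe3 (chrX:7762560-7775202, plus strand) was 11.8, 12.4, 13.0, 20.0 and 14.3 FPKM in controls and 10.3, 17.3 and 13.8 in knockouts, and the groups overlapped. Its log2 fold change was -0.05 ± 0.22 as deposited (adjusted p = 0.835) and 0.73 ± 0.21 after median-ratio rescaling (adjusted p = 0.0211). The rescaled call ended when control replicate 1, 2 or 3 or knockout replicate 2 or 3 was left out, with adjusted p up to 0.0727. The rescaled groups still overlapped, with control replicate 4 above knockout replicate 1. Tfeb passed on no scale and was 3.91 to 7.02 FPKM in controls and 2.51 to 5.82 in knockouts.

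The knockout libraries differed among themselves. Their summed macrophage markers were lowest in replicate 1, next in replicate 3 and highest in replicate 2. The summed stromal and endothelial, adipocyte and megakaryocyte markers had that same order, and the other marker lists had different ones. The megakaryocyte sum was mostly Pf4 (172, 727 and 263 FPKM in knockout replicates 1 to 3), and Itga2b, Gp9, Gp1bb and Vwf did not have that order. Of the 37 genes, 11 (29.7%) had this order of FPKM, among them Gabarap, Tfe3, Optn and Atg10, against 21.1% of all genes tested. The mitochondrial share was lowest in replicate 2, at 37.8%. Sqstm1 and Gabarapl1 were lowest in replicate 1 and highest in replicate 3, while Atg101, Uvrag and Atg4a were highest in replicate 1. The part of transcripts from any of these cell types, or of the mitochondrial share, in these values was not tested.

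Promoter sequences were searched for motifs of the factors linked to autophagy genes, in the 250 bases before the transcript start (RefSeq, GRCm38.p6, both strands), where 31 of the 37 genes had 37 windows. The CLEAR element bound by TFEB, searched as the E-box CACGTG with GT before it and AC after it, was in 0 of the 37 windows and in 0.24% of all 32851 windows. That search allowed no mismatch, so sites that differ by 1 letter were not counted. The E-box alone, which lies inside that element, was in the windows of 3 genes, Atg3, Atg5 and Atg7. That was 8.11% of member windows, near the 6.02% of all windows and the 6.63% of windows of protein-coding genes. The stretches are shown because they hold letters that TFEB and TFE3 are known to bind, but binding was not tested. The 3 genes had log2 fold changes of -0.54, -0.48 and -0.84 as deposited and 0.28, 0.32 and -0.05 rescaled. The Atg7 window, set by the RefSeq start, lies inside the gene as GENCODE M21 annotates it (chr6:114643097-114860614). E-box letters are in capitals:
Atg3 (chr16:45158710-45158784, plus strand): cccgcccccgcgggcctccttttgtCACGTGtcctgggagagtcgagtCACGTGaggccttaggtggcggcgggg
Atg5 (chr10:44268300-44268338, plus strand): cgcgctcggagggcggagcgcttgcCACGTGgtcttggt
Atg7 (chr6:114670939-114670994, plus strand): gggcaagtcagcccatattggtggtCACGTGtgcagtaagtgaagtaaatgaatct

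The FOXO motif GTAAACA was in 0 member windows (3.17% of all), and the antioxidant response core TGACNNNGC in those of Atg13 and Ulk2 (5.41% against 10.2% of all). The GC box GGGCGG was in 62.2% of member windows, against 32.7% of all windows and 42.6% of windows of protein-coding genes. The windows of 21 of the 31 genes held it, so it was not particular to the lower genes. Of the 4 genes that rose after median-ratio rescaling, Atg4a, Sqstm1 and Tfe3 had a GC box. Of the 4 genes that were lower on all scales, Uvrag, Atg10 and Gabarapl1 had a GC box in the window and Atg101 had none. The stretches of Uvrag and Atg10, the ones that lie outside annotated exons, are shown with the GC box nearest the start in capitals, as read on the gene's own strand:
Uvrag (chr7:99141156-99141211, minus strand): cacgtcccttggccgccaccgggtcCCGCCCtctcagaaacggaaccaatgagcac
Atg10 (chr13:91223988-91224029, minus strand): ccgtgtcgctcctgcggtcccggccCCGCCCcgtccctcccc

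Genes that act before, beside and after the core machinery were taken as wider lists. The mTORC1 and AMPK list holds the kinases and lysosomal adaptors that report nutrient state to ULK1. As deposited 19 of its 26 tested genes fell (73.1%, against 59.5% of all genes) and 1 rose (3.85% against 8.91%), with a median of -0.78. After median-ratio rescaling 3 fell (11.5% against 21.4%) and 3 rose (11.5% against 16.5%), with a median of -0.02. Akt1s1 (PRAS40, an inhibitor of mTORC1) was 47.7 ± 7.49 FPKM in controls and 13.3 ± 1.93 in knockouts, Prkag2 (a regulatory subunit of AMPK) 16.01 ± 1.61 and 3.73 ± 1.04, and Mlst8 (a core subunit of mTORC1) 14.9 ± 1.67 and 5.21 ± 0.472 (SD, n = 5 and 3). These 3 were lower on all 4 scales, with log2 fold changes of -1.76, -1.86 and -1.36 as deposited and -0.96, -1.14 and -0.61 rescaled. Flcn (folliculin, which activates RagC and RagD) fell by 1.17 as deposited and did not pass after rescaling (-0.37). The 1 gene that was higher on all 4 scales, Rragd, was named after its values were seen. It was 0.09, 0.18, 0.06, 1.24 and 0.13 FPKM in controls and 1.03, 1.11 and 2.5 in knockouts, low values in which control replicate 4 overlapped the knockouts. Prkaa2 did not pass the filter.

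The list named fusion and closure also holds genes of earlier steps, such as Wdr45, Wdr45b, Zfyve1, Vmp1, Tmem41b, Nrbf2 and Rubcn. Its counts therefore do not describe 1 step. Of its 24 genes, 15 fell as deposited (62.5%, near the 59.5% of all genes) and 0 rose (against 8.91%), with a median of -0.64. After rescaling 3 fell (12.5% against 21.4%) and 4 rose (16.7% against 16.5%), with a median of 0.14. Wdr45, which encodes the WIPI protein WIPI4, was 59.8 ± 4.91 FPKM in controls and 17.8 ± 4.41 in knockouts. It was lower on all 4 scales (-1.72 as deposited, -0.91 rescaled). Vps39 and Vps16, subunits of the HOPS tether, fell as deposited (-1.44 and -1.36) and were at -0.65 (adjusted p = 0.0316) and -0.54 (adjusted p = 0.0617) after rescaling. Vamp8, a fusion SNARE, was 375 ± 42.5 and 183 ± 41.2 FPKM and did not pass after rescaling (-0.21). Stx17, the SNARE of the finished autophagosome, was also lower on all 4 scales, at 22.6 ± 4.12 and 6.30 ± 3.59 FPKM, and was named for that.

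Of 18 further receptors and mitophagy genes, 15 fell as deposited (83.3%, against 59.5% of all genes) and 0 rose (against 8.91%), with a median of -1.02. After rescaling 4 fell (22.2%, near the 21.4% of all genes) and 4 rose (22.2% against 16.5%), with a median of -0.19. Retreg1 (FAM134B, a receptor for the endoplasmic reticulum) was 65.6, 58.8, 52.4, 35.2 and 54.8 FPKM in controls and 4.41, 1.56 and 5.50 in knockouts. The knockouts lay far under every control, and the log2 fold change was -3.57 ± 0.31 as deposited (adjusted p = 1.41e-05) and -2.85 ± 0.33 rescaled (adjusted p = 0.000191). Tax1bp1 and Calcoco1, both soluble receptors, and Phb2, an inner-membrane receptor of mitophagy, were also lower on all 4 scales. Their log2 fold changes were -1.45, -1.74 and -1.38 as deposited and -0.62, -0.94 and -0.55 rescaled.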

How the data were processed

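The authors deposited 1 table of FPKM values for 52097 genes in 8 libraries, with no counts. RNA was amplified by Geo-seq and made into libraries with a transposase kit, per the labels' protocols. Tools listed in the submitters' processing notes are Bowtie 0.12.9, Cufflinks 2.1.1, HTSeq and DESeq2, with the build mm10. The sources used here give neither the annotation release nor whether strand was counted, so genes that overlap on opposite strands are uncertain. Groups came from the genotype labels. Groups were tested in R 4.3.3 with limma 3.58.1 (trend, robust) on log2(FPKM + 1). That fit was tried beforehand on simulated data with no shift in scale between the groups, so the trial could not judge the choice of scaling. Depth was estimated from the steps between low FPKM values, 77.0% to 92.6% of which fell within 0.15 fragments of a whole number. For shares and sums the exact permutation test was two-sided. Alternatives were 3 other scalings, a pseudocount of 0.1, no filter, an FPKM minimum of 5, a replicate block and leaving out each library. Coordinates are from GENCODE M21. Copies were searched with BLAST+ 2.17.0 (at least 90% identity over 300 nt).

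The members and lists were chosen with earlier results of these data known. Values in every library are given for members called in 1 direction as deposited and after median-ratio rescaling, and for members whose sign differed between these scales while 1 called them. Other members are given by range and count, and up to 4 genes with the smallest p are named per wider list. The value of 1 marker gene is not reported here.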

Additional observations from a re-analysis of the deposited data

Results flagged for a closer look

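In 3 of the 37 genes 1 control library stood apart from the other 4, its gap to the next library being over 0.71 of the whole range of the 5 controls. Chance marks about 1 in 20 such groups. Atg101 was 85.29 FPKM in control replicate 4, Atg10 was 15.97 FPKM in control replicate 2 and Gabarapl1 was 144.31 FPKM in control replicate 1, each the highest of its 5 controls. All 3 genes remained lower in the knockouts when that library was left out.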

How the results depend on the processing

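The scaling decided most calls. Under median-ratio rescaling, quantile normalization and the non-mitochondrial total, the 25 lower members became 5, 4 and 10, and the 0 higher became 4, 4 and 0. The count of all genes lower in the knockout went from 8997 to 3233, 3079 and 5898, and that of all genes higher in the knockout from 1348 to 2491 and 2530 under the first 2, to 3561 with no filter and to 619 with the stricter filter. In the same order of scales, the mTORC1 and AMPK genes went from 19 to 3, 3 and 8 lower and from 1 to 3, 3 and 2 higher, the fusion and closure genes from 15 to 3, 2 and 8 lower and from 0 to 4, 6 and 1 higher, and the selective receptor and mitophagy genes from 15 to 4, 4 and 7 lower and from 0 to 4, 3 and 1 higher. The stricter filter gave 0 mTORC1 and AMPK genes and 1 fusion and closure gene higher. The cause of these shifts was not tested.

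The member median log2 fold change turned to 0.10 and 0.13 under median-ratio rescaling and quantile normalization. Among members that passed on either scale the sign also turned, with these 2 values in that order, for Becn1 (0.10, 0.19), Pik3c3 (0.0082, 0.077), Pik3r4 (0.18, 0.25), Atg2a (0.070, 0.090), Atg3 (0.28, 0.36), Atg4a (0.62, 0.68), Atg4d (0.11, 0.20), Atg5 (0.32, 0.40), Map1lc3b (0.17, 0.18), Gabarap (0.77, 0.74), Gabarapl2 (0.42, 0.49, and 0.040 on the non-mitochondrial total), Sqstm1 (0.74, 0.67) and Tfe3 (0.73, 0.80). Of members that passed on no scale, it turned under both for Ulk1 (0.18, 0.19), Ulk2 (0.21, 0.13), Ambra1 (0.38, 0.43), Atg9a (0.42, 0.47), Atg16l2 (0.34, 0.43), Map1lc3a (0.50, 0.56), Optn (0.71, 0.69) and Tfeb (0.30, 0.28). On the non-mitochondrial total the values of Atg4a (0.27), Gabarap (0.39), Sqstm1 (0.36), Tfe3 (0.37), Ambra1 (0.039), Atg9a (0.076), Map1lc3a (0.14) and Optn (0.38) were positive too, without passing the test. Under quantile normalization alone it turned for Atg13 (0.025), Atg7 (0.029), Atg12 (0.085) and Nbr1 (0.037).

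With 1 library left out, members lower ranged from 22 to 26 and members higher from 0 to 0, and 21 of the 25 calls were kept in all 8 fits (not Atg2a, Atg3, Atg4d and Gabarapl2). The count of all genes lower in the knockout ranged from 8379 to 8792 and higher from 847 to 1351. With median-ratio rescaling as well, an alternative added after the data were seen, members lower ranged from 3 to 5 and higher from 2 to 5. Other lists ranged from 16 to 18 lower and 0 to 1 higher (mTORC1 and AMPK), 11 to 18 and 0 to 1 (fusion and closure), and 13 to 15 and 0 to 1 (selective receptors).

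Replicate numbers did not pair the libraries (correlations of same-numbered deviations -0.035, 0.028 and -0.043). With the replicate number as a block over replicates 1 to 3, 18 members were lower and 0 higher, all 18 among the 25. FPKM of genes near 1, such as Atg10 in knockout replicate 1, rest on few fragments at these depths.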
